A study of Homo sapiens with 2 samples.

Results

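The globin genes were described in MEG-01 cells, a megakaryoblastic line of chronic myeloid leukemia (CML), with and without a dominant negative form of GAS2 (GAS2DN). The members were chosen by their annotated symbols and not by a rule on measured values, though earlier results of these arrays were known. All probe sets that list at least 1 of HBA1, HBA2, HBB, HBD, HBE1, HBG1, HBG2, HBM, HBQ1 and HBZ were kept, which gave 19 of 54613 probe sets and 10 of 21357 annotated genes. Control cells received a lentivirus that carried the fluorescent protein Venus alone (the Venus group), and the GAS2DN group received the same kind of vector with GAS2DN, a truncated GAS2 that releases calpain, a protease, from inhibition. The vector uses the promoter of the spleen focus forming virus, and cells of both groups were purified by fluorescence after transduction. Each group was 1 array with RNA pooled in equal amounts from 3 extracts. With 1 array per group there is no spread between samples of a group, no test between the groups was possible, and every difference given here compares 2 arrays. GAS2 itself was read by 1 dim probe set, with a signal of 24.3 in Venus and 34.7 in GAS2DN cells, and it was not known here whether that probe set reads the GAS2DN construct.

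Hemoglobin is assembled from alpha-like and beta-like globin chains, each of which holds a heme group. The alpha-like genes lie on chromosome 16 in the order HBZ, HBM, HBA2, HBA1 and HBQ1. The beta-like genes lie on chromosome 11 and are transcribed in the order HBE1, HBG2, HBG1, HBD and HBB. Along both clusters the embryonic genes come first, HBZ and HBE1, followed by the fetal genes HBG2 and HBG1 and the adult genes HBD and HBB on chromosome 11, while HBA1 and HBA2 serve in both fetal and adult life. Globins are the main product of maturing red cells, and red cells and megakaryocytes descend from a common progenitor that uses the transcription factor GATA1. CML lines often keep part of both programmes.

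The globin probe sets were split at the array median into a bright and a dim set, and HBB had probe sets in both. Of the 19 probe sets 15 had signals at or above the array median on both arrays, and these read alpha (HBA1/HBA2), gamma (HBG1/HBG2), delta (HBD), zeta (HBZ) and theta (HBQ1) globin and 3 of the 4 beta (HBB) probe sets. In 14 of these 15 the signal was higher in GAS2DN cells, by a median of 0.31 on the log2 scale, a ratio of 1.24, and it was higher in 12 after centring on the median of all probe sets and in 13 after loess or quantile normalization. By comparison 56.4% of all probe sets with both signals at or above the array median had a higher signal as deposited. Of the 15, 9 list 2 genes and 12 end in _x_at, the suffix for probes that also match other transcripts. They are therefore not independent readings, and the count is not one of separate genes. None of the 15 was over 2-fold in either direction, against 2.02% of such probe sets over 2-fold higher and 1.59% lower. However, 13 of the 15 lay in the brightest of 10 equal bins by mean signal. In that bin only 1 of 5462 probe sets was over 2-fold higher and 37 were over 2-fold lower. Among all 19 the signal was higher in 15, against 57.9% of all probe sets, with 13 after centring and 14 after loess or quantile normalization. Without the probe sets ending in _x_at or _s_at, which leaves all the dim ones in, the median difference of the globins was -0.31. The other 4 probe sets had at least 1 signal below the array median. They read HBE1 with 2 probe sets, HBM and the fourth HBB probe set, and the over 2-fold differences among the globins lay here, with HBE1 lower and HBM higher in GAS2DN cells. Fewer cells of a type and less RNA per cell cannot be told apart in such bulk RNA.

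**Figure D1:**
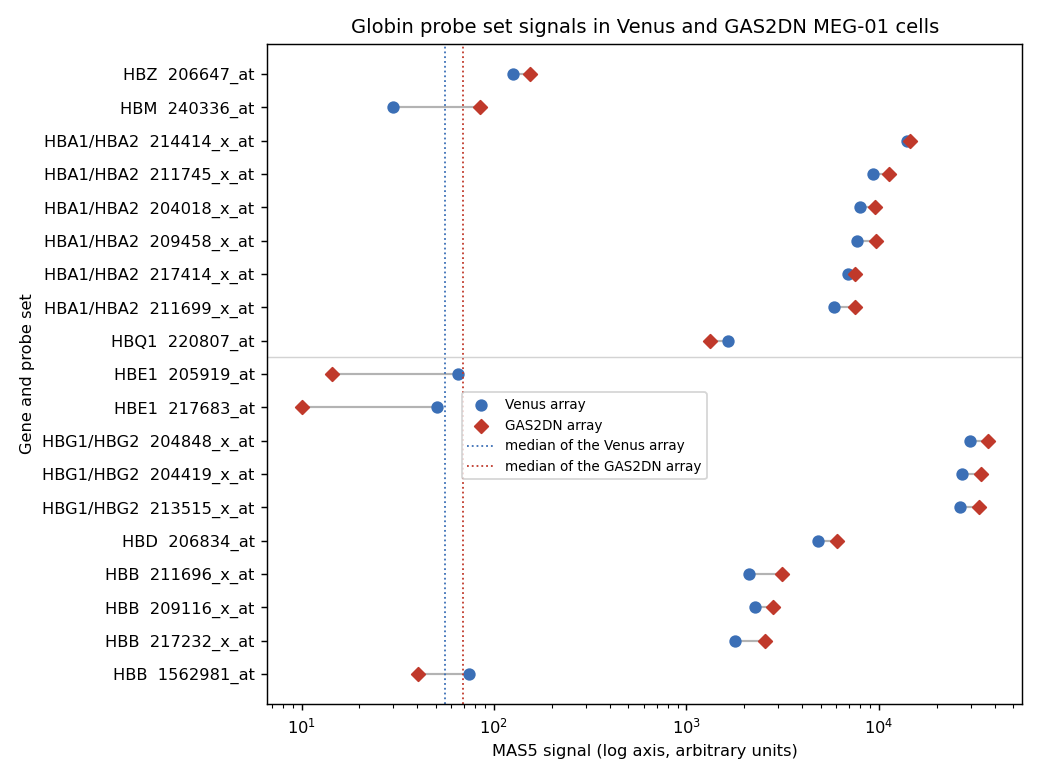
MAS5 signal (log axis, arbitrary units) of each of the 19 globin probe sets on the Venus array (blue circles) and the GAS2DN array (red diamonds), with grey lines between the 2 signals of a probe set and dotted lines at the array medians of 55.6 and 69.1. The alpha-like genes stand above the thin horizontal line and the beta-like genes below it. The red diamonds lie just to the right of the blue circles for alpha, gamma, delta, zeta and most beta globin probe sets, and far to the left for both HBE1 probe sets.

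The signal of an Affymetrix probe set depends on its own probes, so that signals are compared here between the 2 arrays for the same probe set and never between genes. MAS5 had set the 2% trimmed mean of the signals to 500.1 for both arrays, and their median was 55.6 in Venus and 69.1 in GAS2DN cells. Differences are GAS2DN minus Venus on the log2 scale. Over all 54613 probe sets the median difference was 0.12, the shift that centring removes, and it was 0.041 in the brightest of 10 bins of equal size ordered by mean signal. The shift was not even at high signals. In narrower groups of like signal the median was 0.105 in the brightest group, around a mean log2 signal of 13.59. It was 0.013 in the group below, around 12.24. As a rough measure of error within the arrays, the difference was compared between probe sets of the same gene. The SD between them, by the bin of the probe set, was 0.56 in the brightest bin, 1.02 in the sixth, 1.37 in the fifth and 1.89 in the fourth. The other probe sets of a gene could lie in any bin, also a dim one, so that this SD is not a spread at like signal. Over all probe sets of the brightest bin the SD of the differences was smaller, 0.28.

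Alpha globin was read by 6 probe sets, all of which list both HBA1 and HBA2, genes that encode the same protein, and no probe set separated the 2 genes. The probe set 214414_x_at had a signal of 13982 in Venus and 14449 in GAS2DN cells, a difference of 0.047. The probe set 211745_x_at had 9306 and 11304, a difference of 0.28, and 204018_x_at had 7973 and 9558, a difference of 0.26. All 3 were higher in GAS2DN cells, the first of them by a small amount only. The probe set 209458_x_at had 7682 and 9688, a difference of 0.33. In 217414_x_at the signals were 6947 and 7489, a difference of 0.11, and in 211699_x_at they were 5869 and 7555, a difference of 0.36. The 6 differences had a median of 0.27 and an SD of 0.13 between probe sets. Because these probe sets read overlapping transcripts, they are repeated readings of the same 2 RNA pools and not replicates. Each difference was smaller than the SD of 0.56 between probe sets of 1 gene in the brightest bin, which takes in dimmer probe sets of the same genes. The SD over all probe sets of that bin was 0.28. After the differences were centred on the median of all probe sets 214414_x_at and 217414_x_at turned to -0.074 and -0.013. The first of these was at -0.029 after loess and -0.0089 after quantile normalization.

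Gamma globin, the beta-like chain of fetal hemoglobin, was read by 3 probe sets that list both HBG1 and HBG2. Their signals were at percentile 99.6 to 99.7 of the Venus array. The probe set 204848_x_at had 29882 in Venus and 36987 in GAS2DN cells, a difference of 0.31. For 204419_x_at the signals were 26966 and 34022, a difference of 0.34, and for 213515_x_at they were 26427 and 33261, a difference of 0.33. Each of the 3 probe sets was higher in GAS2DN cells, by nearly the same amount. The median difference of 0.33, a ratio of 1.26, had an SD of 0.015 between the 3 probe sets, but it was 0.21 after centring, 0.20 after loess and 0.13 after quantile normalization of the arrays. The highest signals of any probe set were 46594 in Venus and 58539 in GAS2DN cells.

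Beta globin, the chain of adult hemoglobin that HBB encodes, was read by 4 probe sets assigned to HBB alone. The probe set 211696_x_at had a signal of 2122 in Venus and 3124 in GAS2DN cells, a difference of 0.56 and a ratio of 1.47. In 217232_x_at the signals were 1780 and 2556, a difference of 0.52, and in 209116_x_at they were 2274 and 2805, a difference of 0.30. These 3 probe sets were all higher in GAS2DN cells, also under each scaling, and 211696_x_at and 217232_x_at lay at percentiles 99.0 and 98.6 of the differences in the brightest bin. The fourth, 1562981_at, was dim and lower in GAS2DN cells, with 74.2 and 40.5, a difference of -0.87, which was -1.19 after loess, -1.20 after quantile normalization and -0.25 with the array median added. The median over all 4 was 0.41, and it was 0.52 without the dim probe set. HBD encodes the delta chain of the minor adult hemoglobin and was read by 1 probe set, 206834_at, at 4831 in Venus and 6094 in GAS2DN cells, a difference of 0.34. Among the probe sets of HBE1, HBG1, HBG2, HBD and HBB it was the only bright one whose name does not end in _x_at, the suffix for probe sets with probes that also match other transcripts.

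The alpha, beta and gamma chains thus all had a positive median difference, which stayed positive under each scaling. Beta globin, by its 3 probe sets ending in _x_at, exceeded gamma globin by 0.19 in median difference, with an SD of 0.14 formed from the spread of both sets of probe sets, and by 0.33 after loess and 0.41 after quantile normalization. It exceeded alpha globin by 0.25, with an SD of 0.19. These contrasts leave out the dim HBB probe set 1562981_at, which had -0.87. With it included, the beta globin median was 0.41 and the SD between its probe sets was 0.68. That median was above those of gamma globin, 0.33, and alpha globin, 0.27, by much less than this SD. The excess of beta globin thus rests on leaving that probe set out. Alpha minus gamma globin was -0.061, with an SD of 0.13, and turned to 0.021 after loess and 0.11 after quantile normalization, so that its direction was not settled. These values carry no error between samples. In the brightest bin lay 13 globin probe sets from 4 genes or gene pairs, and all 13 were higher in GAS2DN cells, against 57.1% of all probe sets of that bin, while 11 were higher after centring and 12 after loess or quantile normalization. The places of their differences within the bin ran from percentile 51.0 to 99.0, with a median of 92.2. The bin spans a wide range of signals. Its median difference was 0.041, but that of the brightest group of like signal, around a mean log2 signal of 13.59, was 0.105. The gamma globin probe sets were brighter still. For them the share of 57.1% and the percentiles are not a comparison at like signal, though their median of 0.33 was also above 0.105. None of the 13 differences was above the SD of 0.56 between probe sets of 1 gene, which takes in dimmer probe sets of the same genes. Their median of 0.33 was above the SD of 0.28 over all probe sets of the bin. Of the 13, 12 end in _x_at, so that they are not independent readings. HBBP1, a pseudogene that lies between HBG1 and HBD, was added after its values were seen and had 10704 and 12748 in 216063_at, a difference of 0.25.

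**Figure D2:**
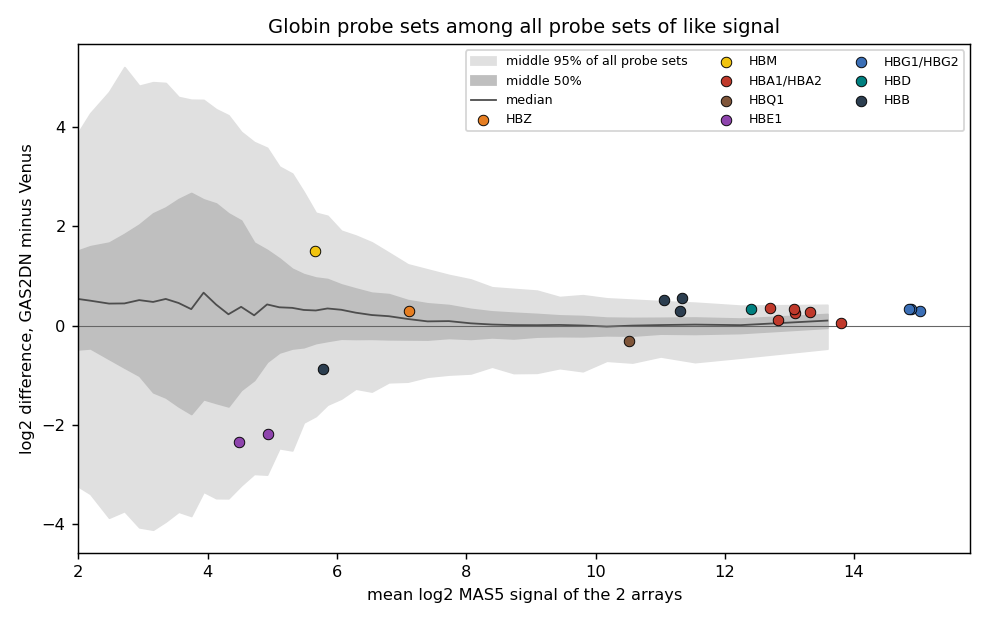
Log2 difference (GAS2DN minus Venus) against the mean log2 signal of the 2 arrays for the globin probe sets (points, coloured by gene), over bands that hold the middle 50% and the middle 95% of all probe sets of like signal and a line at their median; the bands end at the median signal of the brightest group. The alpha, gamma, delta and 3 beta globin points lie above 0 at high signals, where the bands are narrow. HBE1 and HBM lie at low signals, inside the wide 95% band.

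Zeta globin, the embryonic alpha-like chain, was read by 206647_at with a signal of 125 in Venus and 154 in GAS2DN cells, a difference of 0.30 for HBZ. Theta globin, an alpha-like gene whose protein has no settled role, was lower in GAS2DN cells, with 1638 and 1320 in 220807_at, a difference of -0.31 for HBQ1. HBQ1 was the only bright globin gene with a lower signal as deposited in GAS2DN cells, and it had the lower value under each scaling, from -0.43 to -0.29. Both differences were below the SD between probe sets of 1 gene, 0.79 in the bin of HBZ and 0.63 in that of HBQ1.

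HBE1, the embryonic epsilon chain, had the largest differences among the globins. In 205919_at the signal was 65.3 in Venus and 14.3 in GAS2DN cells, a difference of -2.19. In 217683_at it was 50.5 and 10.0, a difference of -2.34. The 2 probe sets had nearly the same difference, with lower signals in GAS2DN cells. Only the Venus signal of 205919_at was above the array median. HBM, which encodes the mu chain, an alpha-like globin, went the other way, at 30.0 in Venus and 85.0 in GAS2DN cells in 240336_at, a difference of 1.50. These were the globin probe sets over 2-fold, 1 higher and 2 lower of 19, where 21.0% of all probe sets were over 2-fold higher and 13.0% over 2-fold lower. Among probe sets with a signal below the array median these shares were 36.1% and 22.0%. The differences of HBE1 lay at percentiles 11.4 and 9.89 of their bin and that of HBM at percentile 83.9. With the array median added to each signal, HBE1 had -0.54 and -0.43 and HBM 0.85, all within 2-fold.

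**Figure D3:**
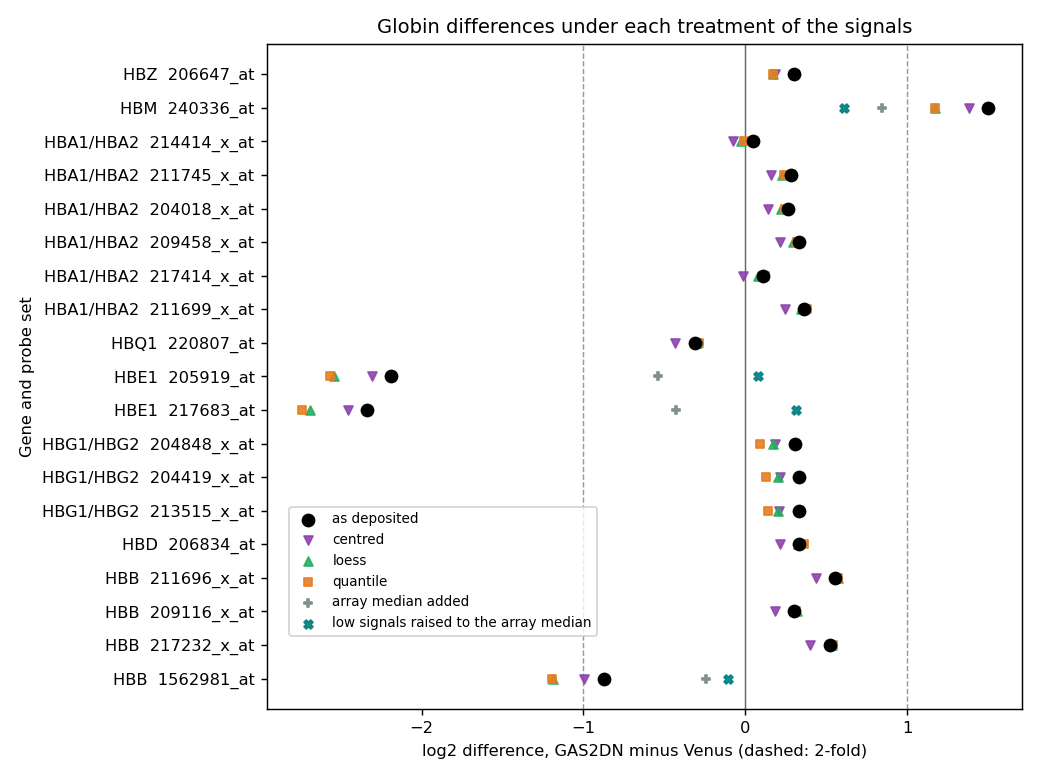
Log2 difference (GAS2DN minus Venus) of each globin probe set as deposited (black circles) and under 5 other treatments of the signals (coloured symbols), with dashed lines at 2-fold. The bright probe sets stay within 2-fold under each treatment, though gamma globin falls from a median of 0.33 to 0.13 after quantile normalization. HBE1 and HBM are over 2-fold as deposited and within 2-fold once the array median is added or low signals are raised to it, a step that sets a probe set dim on both arrays to 0.31, the ratio of the 2 medians.

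Of the 10 genes the RefSeq promoter table holds HBD and HBM, and the 250 bases before the start of each are shown. Each holds some of 4 short sequences known from globin promoters, in a gene of the bright set and in 1 of the dim set. Capitals mark GATAA, which GATA factors bind, CCAAT, the sequence of the CCAAT box, the box CACCC that KLF1 and its relatives bind, and a TATA box spelled TATAA. Each was searched on both strands by its sequence alone, at any place in the window, so that a match need not be the working box of that name. The HBD window is chr11:5234484-5234733 on the minus strand and the HBM window chr16:165728-165977 on the plus strand, both in GRCh38.p14.
HBD: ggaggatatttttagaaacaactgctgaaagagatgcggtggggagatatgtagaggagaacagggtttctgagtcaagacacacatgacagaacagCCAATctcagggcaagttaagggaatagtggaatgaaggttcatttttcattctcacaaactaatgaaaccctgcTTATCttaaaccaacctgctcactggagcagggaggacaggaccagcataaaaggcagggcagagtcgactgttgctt
HBM: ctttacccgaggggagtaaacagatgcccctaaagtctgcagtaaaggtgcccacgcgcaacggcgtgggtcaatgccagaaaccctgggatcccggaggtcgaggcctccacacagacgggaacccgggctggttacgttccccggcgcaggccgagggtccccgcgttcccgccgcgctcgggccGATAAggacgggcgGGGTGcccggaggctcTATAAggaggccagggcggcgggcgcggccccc
HBD held the sequence CCAAT, which began 153 bases before the start, and GATAA on the other strand at 78 bases, but no CACCC and no TATAA. HBM held GATAA at 63 bases, CACCC on the other strand at 49 bases and TATAA at 33 bases, but no CCAAT. The GATAA and TATAA matches did not overlap. Of all 35116 promoter windows of the same length 20.4% held GATAA and 32.0% held CCAAT, while 54.7% held CACCC and 18.9% held TATAA. These matches describe the sequence and say nothing about binding in MEG-01 cells.

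Genes that act around the globins were described by the main probe set of each gene, the one with the highest mean signal. A gene was called measured where at least 1 of the 2 signals of that probe set was at or above the array median, which held for 13127 of 19775 genes, with a median difference of 0.057. Of the 4 other vertebrate globins only CYGB, cytoglobin, was measured, with 130 and 186, a difference of 0.52. Its other 2 probe sets were dim and had 0.42 and 0.21. Myoglobin (MB), neuroglobin (NGB) and androglobin (ADGB) had signals from 12.8 to 25.2 in Venus and from 14.3 to 32.4 in GAS2DN cells, all below the medians.

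AHSP, the chaperone of free alpha chains, was at the median, at 55.6 in Venus and 79.3 in GAS2DN cells, a difference of 0.51. FECH, which inserts iron into heme, had 1064 and 1451, a difference of 0.45, though -0.21 and 0.043 in its other probe sets. EIF2AK1, the kinase that limits globin translation when heme is short, had 3403 and 3628, a difference of 0.092. HMOX1, which degrades heme, had 0.11, and HPX, which binds free heme, -0.040, though a dim second probe set of HPX had 4.02. The erythroid heme enzyme ALAS2 was dim, with 4.79 and 21.1 in the brighter of its probe sets and 13.6 and 5.67 in the other, and HP, haptoglobin, had 9.68 and 26.6. Of the 5 measured genes of this list 4 were higher in GAS2DN cells, against 56.3% of all measured genes, with none over 2-fold, but EIF2AK1 and HMOX1 turned below 0 after centring, HMOX1 also after loess, and HPX turned above 0 with the array median added.

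Of 21 measured regulators of globin genes 12 were higher and 9 lower in GAS2DN cells, with a median of 0.031, where 56.3% of measured genes were higher, and none was over 2-fold, against 7.88% of measured genes over 2-fold higher and 4.43% lower. The median turned to -0.090, with 9 higher, after centring. The 3 highest were SOX6, a repressor of embryonic globins, with 0.84, IGF2BP1, an RNA-binding protein of fetal life, with 0.63, and NFE2, a factor of megakaryocytes and red cells, with 0.53. SOX6 had signals of only 68.5 and 122, and IGF2BP1 had -0.39 and -2.18 in its other probe sets. The 3 lowest were NR2C2, a nuclear receptor that represses globin genes, with -0.57, LDB1, which links the locus control region to the globin genes, with -0.40, and BCL11A, the repressor of gamma globin, with -0.36. NR2C2 and LDB1 had 0.29 and 0.48 in their other probe sets, and those of BCL11A had -0.10, 0.016 and -0.98. KLF1, an activator of HBB, had 2173 in Venus and 2963 in GAS2DN cells, a difference of 0.45 in its single probe set. GATA1 had 1617 and 1516, a difference of -0.093, and 0.072 by a further probe set, and MYB, which keeps progenitors immature, had 9870 and 10882, a difference of 0.14, and 0.16 by its second one.

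Of the 10 megakaryocyte markers with a probe set of their own 7 were measured. All 7 were higher in GAS2DN cells, against 56.3% of measured genes, with a median of 0.37. A difference between 2 arrays of the same line cannot check that the line is megakaryoblastic. GP1BA turned to -0.018 after centring, and 6 of the 7 were higher by the median over the probe sets of each gene. They included ITGA2B, the platelet integrin alpha chain, with 7149 and 9238, a difference of 0.37. ITGB3, its partner chain, had 0.87, but 0.055 in a second probe set above the median on both arrays. TUBB1, platelet tubulin, had 0.62, but -1.82 in its other, dim probe set, and SELP, P-selectin, had 0.56. GP6, the collagen receptor, had 0.35 and GP9 and GP1BA, subunits of the von Willebrand factor receptor, 0.22 and 0.10, while PF4, PPBP and VWF were below the median on both arrays. Of 6 measured erythroid markers 5 were higher by the main probe set, against 56.3% of measured genes, with a median of 0.29. The count was 5 under each scaling as well. By the median over the probe sets of each gene 3 of the 6 were higher, with a median of 0.048, so that the count rests on the choice of probe set. RHAG, the Rh-associated glycoprotein, had 13560 and 17242, a difference of 0.35, but -0.13 and 0.14 in its other probe sets. The transferrin receptor TFRC had 0.29. The nuclear protein HEMGN had 0.29 as well, but -0.52 in a probe set about as bright. ERMAP had 0.29 and EPOR, the erythropoietin receptor, -0.37. SLC4A1, the red cell anion exchanger, had 3.56 from signals of 11.7 and 138, and -3.65 in its other, dim probe set. The part of either lineage in the globin values was not tested.

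**Figure D4:**
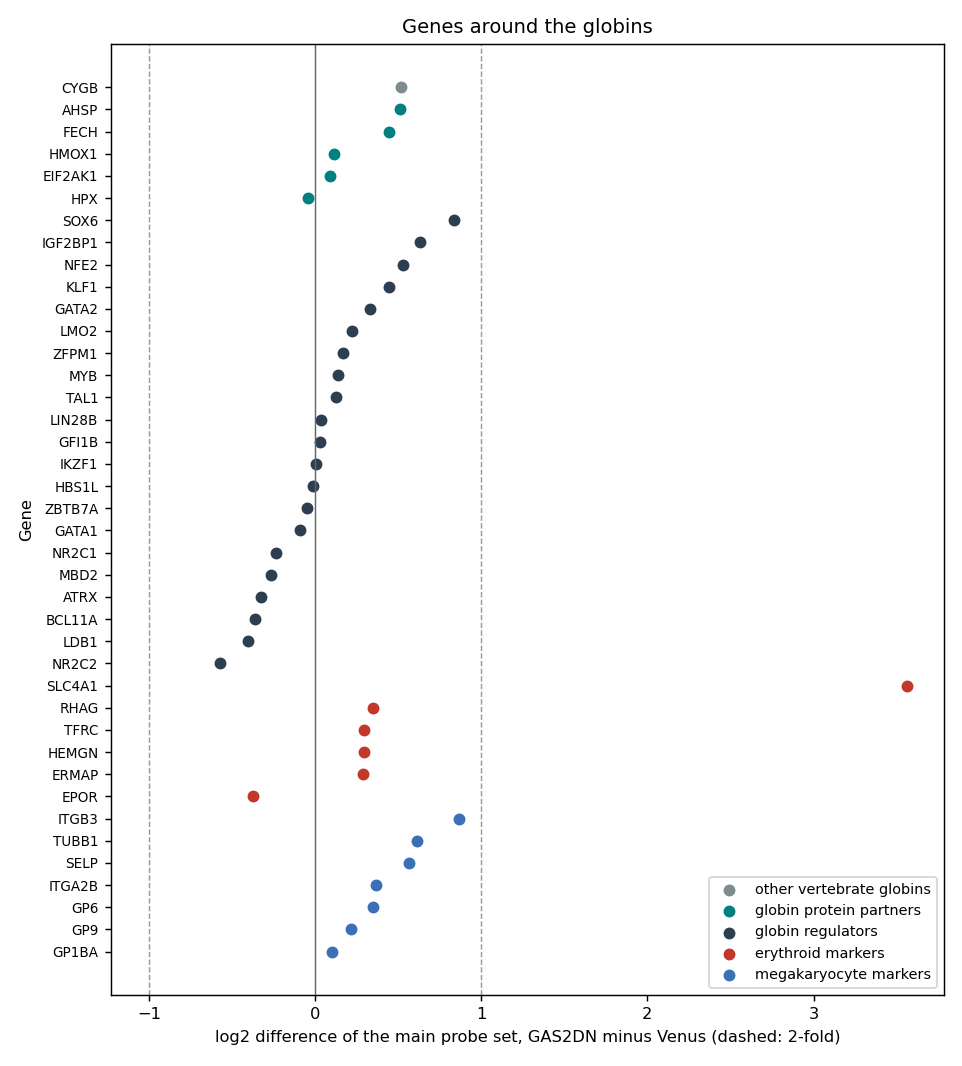
Log2 difference (GAS2DN minus Venus) of the main probe set of each measured gene in the 5 lists around the globins, coloured by list and ordered within it, with dashed lines at 2-fold. All genes except SLC4A1 lie within 2-fold, and the regulators spread to both sides of 0.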

How the data were processed

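Total RNA of the Venus and GAS2DN groups of MEG-01 cells was hybridised to Human U133 Plus 2.0 arrays of Affymetrix, 1 per group. The authors deposited log2 values of MAS5 signals, per the labels, with no version and without detection calls. The log2 values were used as deposited, converted to linear signals for printing, and subtracted. Of 54675 probe sets 62 controls were left out, and genes were named from the platform's annotation, with symbols updated through gene identifiers of RefSeq. Probe sets that list 2 globin genes were kept and are named as shared.

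The globin genes and the lists around them were chosen with earlier results of these arrays known. The text names all globin probe sets, all other vertebrate globins and protein partners, and the 3 highest and 3 lowest members of the other lists with GATA1, KLF1, BCL11A, MYB and ITGA2B. Some members of the lists are not reported here. MAS5 scaling sets the trimmed mean of both arrays equal, so a shift common to most genes cannot be seen. The number of arrays limits the precision. Alternatives were centring, loess (span 0.2, 3 iterations), quantile normalization, changes to low signals, filters on dim probe sets and other choices of probe sets. The centring and loess steps were tested on simulated data with the same noise at all signals, unlike the arrays here. The software was Python 3.11.15, with statsmodels 0.14.6 for loess, matplotlib 3.10.9 for figures, and pandas 2.3.3, scipy 1.17.1 and numpy 2.4.6 for the rest.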

Additional observations from a re-analysis of the deposited data

How the results depend on the processing

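No paired analysis was possible because each group had 1 array. A value was taken to have moved when it changed by more than the SD between the probe sets or genes behind it. The median of the gamma globin probe sets, 0.33 as deposited, was 0.21 after centring, 0.20 after loess and 0.13 after quantile normalization. The median over all globin probe sets was -0.31 without probe sets ending in _x_at or _s_at, which leaves out all alpha and gamma globin probe sets, and the median of the globin regulators was -0.090 after centring. The count of globin probe sets over 2-fold higher, 1 as deposited, was 0 with the array median added, with low signals raised to it and when neither signal was allowed below it. The count over 2-fold lower, 2 as deposited, was 0 in the same cases, 1 with at least 1 signal required at or above the median, and 3 after loess and after quantile normalization, where the dim HBB probe set passed 2-fold. Single probe sets turned in sign in 6 cases. These were 214414_x_at of alpha globin, with -0.074, -0.029 and -0.0089 after centring, loess and quantile normalization, 217414_x_at with -0.013 after centring, and the HBE1 probe sets 205919_at and 217683_at, with 0.080 and 0.31 when low signals were raised, values that the array medians set and that say nothing about HBE1. Alpha minus gamma globin turned after loess and quantile normalization, and single genes of the lists of partners, regulators and megakaryocyte markers turned as well, with the median of the partners at -0.0088 after centring. The median of the erythroid markers, 0.29, was 0.048 over the probe sets of each gene. The medians of the alpha, beta and gamma globin probe sets and of the erythroid and megakaryocyte markers kept their direction under the alternatives run for them. Of 95 values of single globin probe sets 92 moved by less than their spread, among them the alpha globin values that turned in sign. That spread was 0.56 in the brightest bin, above each globin difference there as deposited, so that the count says little about stability. The causes were not tested, apart from those that follow from leaving out probe sets or from raising low signals.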
